A study of Mus musculus with 6 samples.

Results

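The transcription factors that mark and specify retinal ganglion cells were followed as a set of 9 genes, Pou4f1, Pou4f2, Pou4f3, Isl1, Isl2, Ebf1, Ebf3, Eomes and Tbr1. They were chosen by name, and each was matched to its Ensembl identifier, so that 9 of the 55487 genes in the count table are described. The libraries are bulk RNA sequencing of C57BL/6 mouse retina at embryonic day 16.5. The 3 libraries labelled Foxp1 cKO came from Six3-Cre; Foxp1 fl/fl embryos, in which a Cre driven by Six3 sequence, active in the early eye field and retina, meets floxed alleles of the forkhead factor Foxp1. The 3 labelled control came from Foxp1 fl/fl embryos, which carry the same floxed alleles and no Cre. Every library is 1 animal with both eyes combined, and all 6 animals were littermates, so a p-value measures the spread between animals of 1 litter. No group with Cre alone was among them.

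Retinal ganglion cells are the output neurons of the retina and the first of its neurons to be born; their axons form the optic nerve. In the textbook order, the bHLH factor Atoh7 makes progenitors competent for this fate, Pou4f2 and Isl1 then act together to drive ganglion cell differentiation, and Pou4f1, Pou4f3, Isl2, Eomes and Tbr1 divide the cells into subtypes, with Ebf1 and Ebf3 acting in differentiating ganglion cells as well. Isl1 is also made by some amacrine cells and by bipolar cells, and the Ebf factors by some amacrine cells, so these RNAs are not the product of ganglion cells alone.

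The 9 genes fall into families whose coding sequences resemble each other, which matters for counting. The longest run of identical bases shared by the annotated mouse transcripts of each pair was searched in GENCODE M21 on mm10. It was 71 bases for Pou4f1 and Pou4f2, 41 for Pou4f1 and Pou4f3, 35 for Pou4f2 and Pou4f3, 23 for Isl1 and Isl2, 24 for Ebf1 and Ebf3, and 14 for Eomes and Tbr1. All of these lie in coding sequence, and the longest run of 1 pair per family is printed because there the reads of paralogs look most alike.
Pou4f1 and Pou4f2: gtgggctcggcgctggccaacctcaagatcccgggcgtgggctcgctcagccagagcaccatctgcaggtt
Isl1 and Isl2: cggactgtgctcaacgagaagca
Ebf1 and Ebf3: gagccgctgggcagcggcatgaac
Eomes and Tbr1: ggcgccggcgcggg
Every run is shorter than the 150 cycles sequenced from each end of a fragment. Antisense genes overlap Isl2, Ebf1, Ebf3 and Eomes on the opposite strand. Gm33460 shares 118 exon bases with Eomes and held 6 counts over the 6 libraries, and Gm45278 shares 355 with Ebf3 and held 0. Gm17226 lies across Isl2 with no exon base in common and held 142 counts.

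The 3 factors with the highest level per kilobase of exon were Pou4f1, Isl1 and Pou4f2, and the 250 bases before the RefSeq start of each (build GRCm38.p6, all on the minus strand, read 5′ to 3′) are shown because Foxp1 is a forkhead protein and these are the main ganglion cell genes. Capitals mark the E-box CAGCTG, a form bound by bHLH proteins, the class that Atoh7 belongs to, and the CCAAT box.
Pou4f1, chr14:104468000-104468249: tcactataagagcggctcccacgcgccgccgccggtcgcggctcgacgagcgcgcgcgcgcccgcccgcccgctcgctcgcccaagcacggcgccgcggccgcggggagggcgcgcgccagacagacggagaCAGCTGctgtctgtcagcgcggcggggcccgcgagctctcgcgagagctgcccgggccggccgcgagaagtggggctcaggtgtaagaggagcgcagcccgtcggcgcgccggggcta
Isl1, chr13:116309689-116309938: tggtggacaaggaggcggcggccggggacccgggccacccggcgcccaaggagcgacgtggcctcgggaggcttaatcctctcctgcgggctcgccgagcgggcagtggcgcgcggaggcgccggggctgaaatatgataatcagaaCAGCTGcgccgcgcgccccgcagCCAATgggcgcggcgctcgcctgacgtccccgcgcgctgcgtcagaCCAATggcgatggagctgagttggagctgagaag
Pou4f2, chr8:78436648-78436897: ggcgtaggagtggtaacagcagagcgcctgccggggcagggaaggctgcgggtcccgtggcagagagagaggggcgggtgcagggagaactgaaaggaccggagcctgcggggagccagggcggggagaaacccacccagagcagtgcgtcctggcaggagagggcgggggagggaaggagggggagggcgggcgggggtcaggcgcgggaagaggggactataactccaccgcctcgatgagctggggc
The windows are rich in G and C, at 78.0% for Pou4f1, 71.2% for Isl1 and 70.8% for Pou4f2, against a median of 52.4% over all 32851 windows of this length. CAGCTG occurs 118 bases before the start of Pou4f1 and 103 bases before that of Isl1, and 13.0% of all windows hold it. CCAAT occurs 80 and 34 bases before the start of Isl1, and 33.8% of all windows hold it on either strand. Windows were given for 8 of the 9 factors, with a second start for Ebf1. The forkhead sequence TGTTTAC, searched on both strands, is in none of these 9 windows and in 3.17% of all windows. The shorter core GTTTAC, which is part of it, is in 1 window of Tbr1, 129 bases before the start on the minus strand, in 1 of Ebf1, 94 bases before the start, and in 6.92% of all windows. Both of these windows lie wholly within annotated exons. A match is a run of letters and not a measured site.

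Before the values of the 9 factors, 3 facts on the libraries are given, and those on Foxp1 and the sex-linked genes bear on the group labels. Totals were 23707761 to 25714620 counts, and 17275 genes passed the filter on low counts. The targeted gene was higher, not lower, in the libraries labelled cKO: Foxp1 was at 50.8, 41.1 and 46.2 CPM (read counts scaled to library size) in control 1 to 3 and at 72.4, 75.5 and 68.8 in cKO 1 to 3, a log2 fold change of 0.65 ± 0.065 (SE; edgeR quasi-likelihood test, adjusted p = 4.63e-05). Xist and the Y-linked genes went against the labelled sex in control 2 and cKO 2, with 13 Xist counts in a library labelled female and 14143 in one labelled male. Xist and the 4 Y-linked genes counted, Ddx3y, Eif2s3y, Kdm5d and Uty, matched the labelled sexes in all 6 libraries once these were exchanged between the groups number for number. The labelled sexes of the groups differ only at number 2. An exchange of control 2 with cKO 2 alone would therefore give the same match. Lens crystallin and fibre markers, all 12 of which had counts in at least 1 library, summed to 74.2 to 1196 CPM in the labelled controls and 22.1 to 320 in the labelled cKO libraries, with control 3 highest. These lens sums overlap between the groups and do not bear on the labels. Because of the Foxp1 and sex-linked values, groups are called by their labels throughout. Each fold change divides the labelled cKO group by the labelled control group. For retina itself, Lhx2, a factor of the eye field and retinal progenitors, was at 280, 283 and 275 CPM in control 1 to 3 and at 288, 266 and 265 CPM in cKO 1 to 3.

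All 9 factors passed the filter, and none differed between the labelled groups at an adjusted p under 0.05 (edgeR quasi-likelihood test, adjusted over the 17275 genes tested), where 0.781% of all genes did. Among all genes tested, 135 were called, 51 higher (0.295%) and 84 lower (0.486%). In the labelled cKO libraries, 3 of the 9 were higher and 6 lower, with a median log2 fold change of -0.07, while 8661 of all genes tested were higher and 8614 lower, with a median of 0.00. At an unadjusted p under 0.05 there were 2, Ebf3 and Tbr1, against 16.5% of all genes. That count was 0 without control 1, 0 without control 2 and 4 without control 3. It was also 0 with labelled sex as a covariate or with no robust estimation. It was 3 with no filter, with the labelled sexes exchanged (edgeR or DESeq2), with a replicate block and with the exon length trend removed. Every other setting gave 1 or 2. The share of all genes in these settings was not counted. The 95% interval of the difference lay within a 1.25-fold difference either way for 8 of the 9, all but Tbr1. Summed over the 9 factors, the level was 857 to 920 CPM in the labelled controls and 818 to 895 CPM in the labelled cKO libraries, which overlap. In bulk retina, fewer ganglion cells and less RNA per ganglion cell cannot be told apart.

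**Figure D1:**
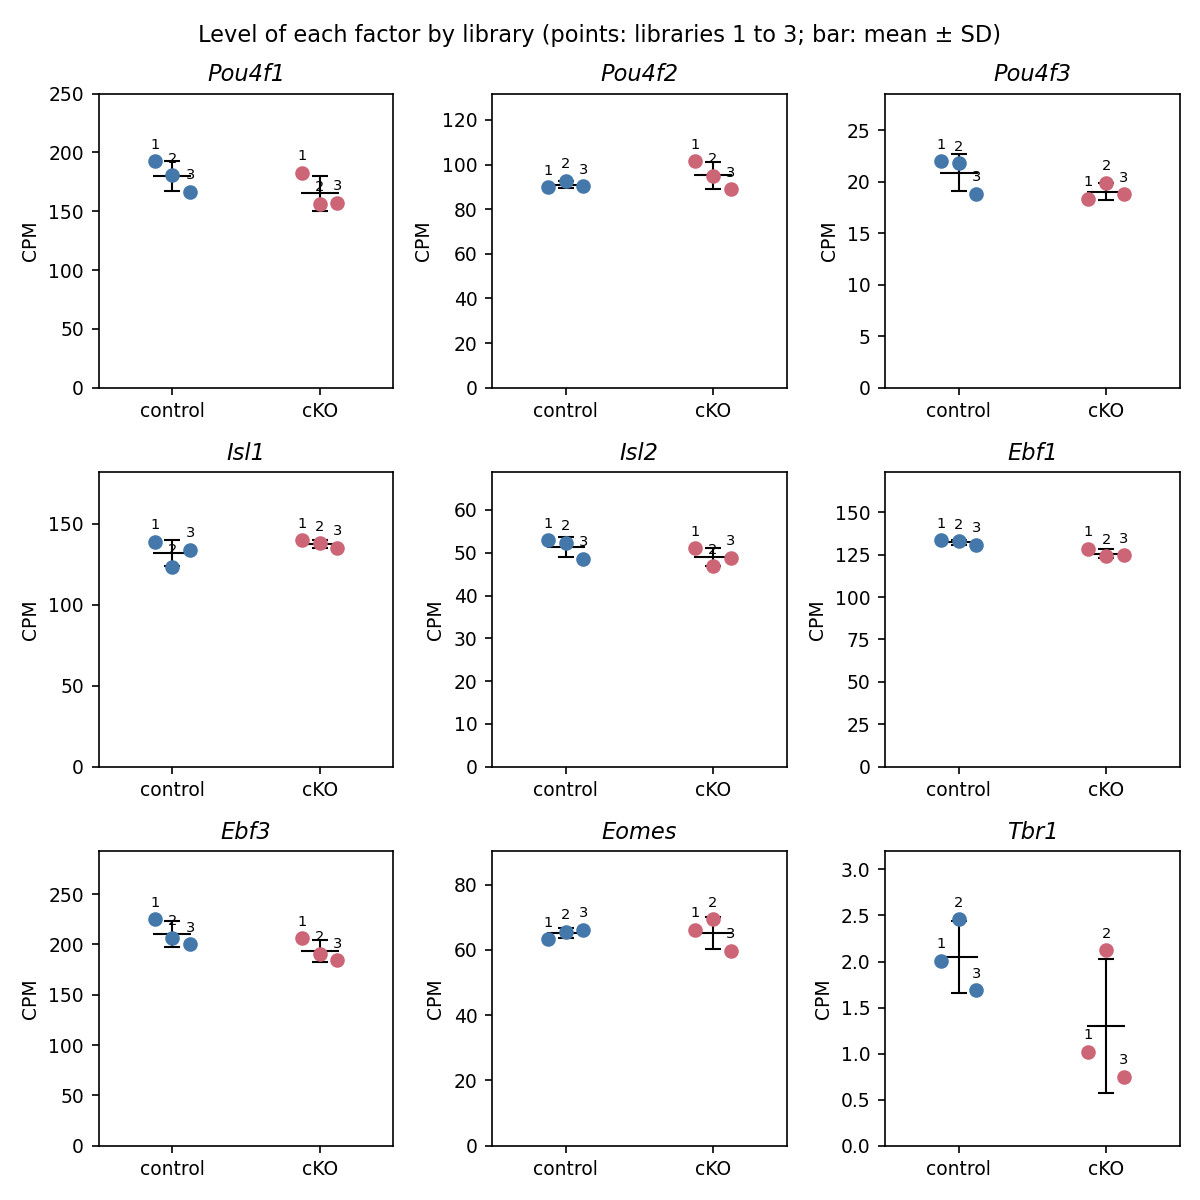
Level of each of the 9 factors in CPM (y axis, from 0) in the 3 libraries labelled control and the 3 labelled cKO (x axis). Points are libraries 1 to 3 and bars are the mean with the SD; the groups overlap in every panel but that of Ebf1.

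Pou4f2 (ENSMUSG00000031688, chromosome 8, 78433010 to 78436645, minus strand, mm10), the POU-homeodomain factor needed for ganglion cell differentiation and survival, did not pass the test. It was at 89.7, 92.7 and 90.3 CPM in control 1 to 3 and at 101, 94.9 and 88.9 CPM in cKO 1 to 3. The highest and the lowest of the 6 values were both in libraries labelled cKO, so the groups overlapped. The means were 90.9 ± 1.59 and 95.1 ± 6.23 CPM (SD, n = 3 each), and the log2 fold change was 0.06 ± 0.049 (SE; 95% interval -0.04 to 0.17; edgeR adjusted p = 0.563). It was 0.02 without cKO 1, 0.11 without cKO 3, and 0.08 without control 2 and cKO 2.

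Isl1 (ENSMUSG00000042258, chromosome 13, 116298281 to 116309689, minus strand), the LIM-homeodomain partner of Pou4f2, gave 139, 124 and 134 CPM in the labelled controls and 140, 138 and 135 CPM in the labelled cKO libraries. Control 2 was the lowest of the 6, and control 1 lay among the cKO values. The log2 fold change was 0.06 ± 0.050 (SE; 95% interval -0.04 to 0.16; edgeR adjusted p = 0.614). Without control 2 it was 0.01, without control 1 it was 0.10, and without control 2 and cKO 2, whose sex-linked genes contradict the labels, it was 0.01.

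Pou4f1 (ENSMUSG00000048349, chromosome 14, 104461676 to 104467999, minus strand), which marks most ganglion cells once they differentiate and shapes their dendrites, was at 192, 181 and 167 CPM in control 1 to 3. In cKO 1 to 3 it was at 183, 157 and 157 CPM. The lowest values were those of cKO 2 and 3, and cKO 1 lay between control 1 and control 2. The means were 180 ± 12.9 and 165 ± 14.8 CPM (SD, n = 3 each), with a log2 fold change of -0.12 ± 0.065 (SE; 95% interval -0.26 to 0.02; edgeR adjusted p = 0.372). It was -0.07 without control 1, -0.20 without cKO 1 (adjusted p = 0.0721), and -0.08 without control 2 and cKO 2.

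Pou4f3 (ENSMUSG00000024497, chromosome 18, 42394539 to 42397249, plus strand), made in a subset of ganglion cells and best known as a hair cell factor of the inner ear, was the lowest of the POU4 genes. It was at 22.0, 21.8 and 18.8 CPM in the labelled controls and at 18.3, 19.9 and 18.8 CPM in the labelled cKO libraries. Control 3 sat among the cKO values, and the other two controls lay above them. The log2 fold change was -0.13 ± 0.080 (SE; 95% interval -0.30 to 0.03; edgeR adjusted p = 0.427), and without control 3, the library with the most lens RNA, it was -0.20 (adjusted p = 0.229).

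Isl2 (ENSMUSG00000032318, chromosome 9, 55538672 to 55546180, plus strand), which marks contralaterally projecting ganglion cells, was at 52.9, 52.4 and 48.6 CPM in control 1 to 3. The libraries labelled cKO gave 51.1, 46.9 and 48.8 CPM. The groups overlapped, with control 3 below cKO 1 and cKO 3. The log2 fold change was -0.07 ± 0.057 (SE; 95% interval -0.19 to 0.05; edgeR adjusted p = 0.610). It was -0.04 without cKO 2, -0.05 without control 1, -0.10 without control 3, and -0.02 without control 2 and cKO 2.

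Ebf1 (ENSMUSG00000057098, chromosome 11, 44617317 to 45008091, plus strand), a helix-loop-helix factor of the Olf/EBF family, was the 1 factor whose groups did not overlap. It was at 133, 133 and 131 CPM in the labelled controls and at 128, 124 and 125 CPM in the labelled cKO libraries. Every control lay above every cKO library, a separation that 20.1% of all genes tested showed in either direction and 9.30% in this one. The difference was small: the means were 132 ± 1.43 and 126 ± 2.38 CPM (SD, n = 3 each), and the log2 fold change was -0.07 ± 0.045 (SE; 95% interval -0.17 to 0.02; edgeR adjusted p = 0.432).

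Ebf3 (ENSMUSG00000010476, chromosome 7, 137193673 to 137314445, minus strand), its paralog, had the highest CPM of the 9. It was at 225, 207 and 200 CPM in control 1 to 3 and at 206, 191 and 184 CPM in cKO 1 to 3. The groups overlapped because cKO 1 lay above control 3. The log2 fold change was -0.12 ± 0.056 (SE; 95% interval -0.24 to -0.01), with an unadjusted p of 0.0414 and an adjusted p of 0.279 in edgeR. It was -0.07 without control 1 (adjusted p = 0.728), -0.17 without cKO 1 (0.130), and -0.12 without control 2 and cKO 2.

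Eomes (ENSMUSG00000032446, chromosome 9, 118478212 to 118486132, plus strand), also called Tbr2, a T-box factor of ganglion cell subtypes that include those making melanopsin, was at 63.3, 65.6 and 66.2 CPM in the labelled controls. The labelled cKO libraries gave 66.2, 69.3 and 59.7 CPM. The means were 65.0 ± 1.54 and 65.1 ± 4.93 CPM (SD, n = 3 each), and the cKO libraries held both the highest and the lowest value. The log2 fold change was 0.00 ± 0.054 (SE; 95% interval -0.11 to 0.11; edgeR adjusted p = 0.999), and its sign turned with the choice of normalization.

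Tbr1 (ENSMUSG00000035033, chromosome 2, 61802930 to 61814114, plus strand), a T-box factor of ganglion cells whose dendrites lie in the OFF layer, was near the floor of the assay. It had 48, 61 and 40 counts in the labelled controls and 26, 51 and 19 in the labelled cKO libraries, which is 2.01, 2.46 and 1.69 CPM against 1.02, 2.12 and 0.750 CPM. Libraries cKO 1 and cKO 3 lay below all controls, and cKO 2 lay among them. The log2 fold change was -0.67 ± 0.32 (SE; 95% interval -1.33 to -0.01), with an unadjusted p of 0.0475 and an adjusted p of 0.297 in edgeR. The value rested on single libraries: it was -1.21 without cKO 2 and -0.39 without cKO 3.

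**Figure D2:**
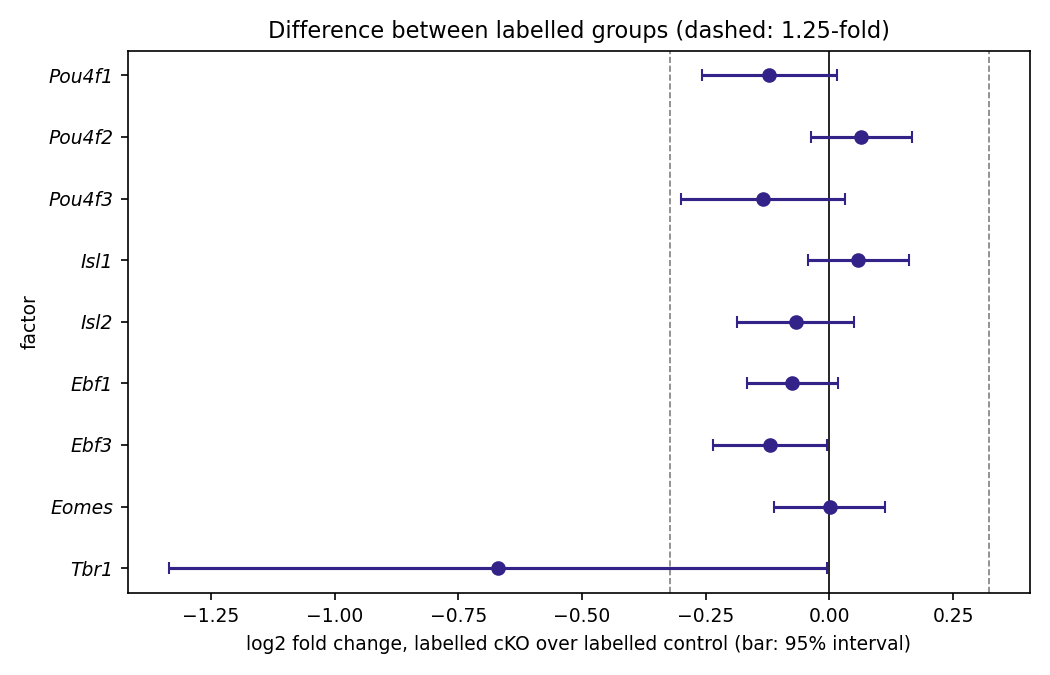
Log2 fold change of each factor, labelled cKO group over labelled control group (x axis), as a point with its 95% interval from the edgeR fit; the solid line marks no difference and the dashed lines a 1.25-fold difference either way. Of the 9 intervals, 8 lie between the dashed lines, and that of Tbr1 reaches from -1.33 to -0.01.

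Per kilobase of exon, the scale on which different genes can be compared, the 9 factors spanned a wide range. Pou4f1 had the highest mean at 37.0 ± 3.16 CPM per kilobase (SD over 6 libraries), above 92.8% of all genes tested. Its range of 33.5 to 41.2 overlapped that of Isl1, the next, at 34.1 ± 1.52. Isl1 lay above Pou4f1 in cKO 2 (34.9 against 33.5) and cKO 3 (34.2 against 33.6), and below it in the other libraries. Pou4f2 followed at 29.0 ± 1.45 with a highest library of 31.6, which lay above the lowest Isl1 library at 31.2. Within each library, however, Isl1 lay above Pou4f2. Isl2 at 22.9 ± 1.08 and Ebf3 at 21.9 ± 1.53 had ranges that overlapped. Within a library Isl2 lay above Ebf3 in all but control 1, where they were at 24.1 and 24.4.

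Below them, Eomes was at 15.7 ± 0.787 and Ebf1 at 13.2 ± 0.416 CPM per kilobase, and each library of Eomes lay above each of Ebf1. Pou4f3 followed at 8.31 ± 0.667, with 2399 exon bases against 9756 for Ebf1. Tbr1 came last at 0.305 ± 0.121, above 8.92% of all genes tested. The order per length therefore differs from the order in CPM, which puts Ebf3 first.

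**Figure D3:**
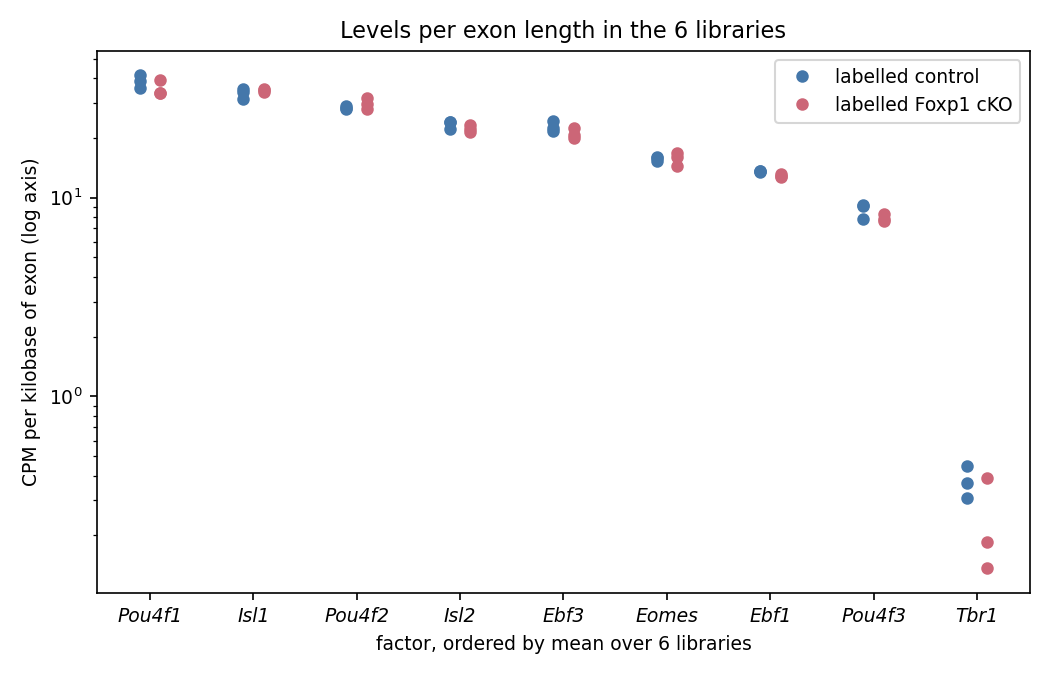
Level per exon length of each factor in CPM per kilobase (y axis, log scale), with the factors ordered by their mean over 6 libraries (x axis); each point is a library, coloured by its labelled group. Pou4f1, Isl1 and Pou4f2 lie highest with neighbouring ranges that overlap, and Tbr1 stands far below the other factors.

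Ratios between paralogs within a library do not depend on how the libraries were scaled. The ratio of Pou4f1 to Pou4f2, on the scale per kilobase, was 1.47, 1.34 and 1.27 in control 1 to 3 and 1.23, 1.13 and 1.21 in cKO 1 to 3, so every labelled control lay above every labelled cKO library. Of the 5 ratios computed it was the 1 whose groups did not overlap. Since it was singled out after its values were seen, it is given with no test. How often ratios of other gene pairs separated was not counted, while 20.1% of single genes tested did. The ratio of Pou4f3 to Pou4f2 was 0.327, 0.314 and 0.278 against 0.241, 0.280 and 0.282, which overlapped. The ratio of Isl1 to Isl2 was 1.46, 1.31 and 1.53 against 1.52, 1.63 and 1.53, that of Ebf3 to Ebf1 was 1.78, 1.64 and 1.62 against 1.70, 1.63 and 1.56, and both overlapped. Pou4f2 to Isl1, the pair that acts together, was at 0.852 ± 0.0675 in the labelled controls and 0.853 ± 0.0418 in the labelled cKO libraries (SD, n = 3 each).

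Across the 6 libraries, log2 CPM of the 9 factors gave 36 pairwise correlations, which are descriptions over 6 points that share litter and labelled group. The median Pearson r was 0.20, and 25 of the 36 were above 0. The highest were Pou4f1 with Ebf3 at 0.95, Pou4f1 with Isl2 at 0.93 and Ebf1 with Ebf3 at 0.86. Pou4f2 and Isl1, by contrast, were at 0.25, and the lowest pair was Pou4f3 with Isl1 at -0.43. Taken as deviations from the mean of each labelled group, the median r was 0.28, and 26 were above 0. Pou4f2 and Isl1 were then at 0.01. How often pairs of other genes lay above 0 was not counted.

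Among 10216 protein-coding genes with a mean of at least 10 CPM, those most like Pou4f1 over the 6 libraries were Ttbk2 and Iws1, both at r = 0.996, and Nckap5l at 0.995. As many as 526 genes (5.15%) passed r = 0.9 with Pou4f1. Isl1 had 41 such genes (0.401%), led by Smim14 at 0.964, with Gfod2 and Decr2 at 0.958. Pou4f2 had 57 (0.558%), led by 9130023H24Rik at 0.976 and by Sfxn3 and Iba57 at 0.975. These are correlations over 6 libraries of small spread, given as a description.

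Upstream of the 9 factors, the list of 18 competence and neurogenic genes had 9 higher and 9 lower, with a median log2 fold change of 0.01. Atoh7, the competence factor, was the 1 gene called: it was at 437, 407 and 459 CPM in the labelled controls and at 545, 551 and 504 CPM in the labelled cKO libraries, with no overlap. Its log2 fold change, labelled cKO over labelled control, was 0.30 ± 0.056 (SE; edgeR adjusted p = 0.0182). The authors' value for it, which is reversed, is given below with those of the other called genes. Its targets Pou4f2 and Isl1 had changes of 0.06 each, given above. The call was lost without control 2 (0.25, adjusted p = 0.144), without cKO 2 (0.27, 0.229) and without both (0.23, 0.714). It was also lost without robust estimation (0.30, 0.113) and with the exon length trend removed (0.22, 0.0626).

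Beside the 9 factors, a list of 26 other transcription factors of ganglion cells had 9 higher and 17 lower, with a median of -0.04. Foxp2, the forkhead factor of a ganglion cell subset and a relative of Foxp1, was the 1 called. It was lower by 0.56 ± 0.075 on the log2 scale in the libraries labelled cKO (SE; edgeR adjusted p = 6.31e-04). It was at 17.6 to 19.2 CPM there, against 25.5 to 28.6 CPM in the labelled controls. Without control 2 and cKO 2 its adjusted p was 0.155. The other Ebf genes were not called: Ebf2 had a log2 fold change of -0.14 ± 0.145 and Ebf4 of -0.06 ± 0.089 (SE). None of the 8 LIM and POU partners was called in edgeR, and none had an unadjusted p under 0.05. Such a p was found for 6 of the 18 upstream genes and 8 of the 26 other factors, against 16.5% of all genes. The most abundant of the partners, Ldb1, which bridges LIM-homeodomain proteins such as Isl1, was at -0.01 ± 0.051, and Lhx2 at -0.03 ± 0.052 (SE).

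Among 31 axon, cytoskeleton and signalling genes of ganglion cells, 14 were higher and 17 lower, with a median of -0.03. In edgeR 8 of them had an unadjusted p under 0.05, against 16.5% of all genes. Their summed level was 8752 to 9015 CPM in the labelled controls and 8584 to 9315 CPM in the labelled cKO libraries. The 1 called was Chrnb3, a nicotinic receptor subunit. It was lower by 0.34 ± 0.073 on the log2 scale in the libraries labelled cKO (SE; edgeR adjusted p = 0.0329). That call was lost without control 1 (adjusted p = 0.0522), control 2 (0.144), cKO 2 (0.218) or cKO 3 (0.0990), and without both control 2 and cKO 2 (0.714). It was also lost without robust estimation (0.121) and with the exon length trend removed (0.0665).

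Some of the 9 factors are shared with other retinal cells, and the markers of those cells were measured in the same fit. Amacrine markers had 3 of 11 tested genes higher and 8 lower, summing to 781 to 794 CPM in the labelled controls and 743 to 764 CPM in the labelled cKO libraries. Horizontal cell markers, 1 of 6 higher and 5 lower, summed to 451 to 501 CPM and 399 to 418 CPM in the same order. In edgeR 4 of the 11 amacrine and 2 of the 6 horizontal genes had an unadjusted p under 0.05, against 16.5% of all genes. The called genes were Tfap2b, which is on both lists, at -0.25 ± 0.054 (SE; edgeR adjusted p = 0.0329) and Prox1 at -0.24 ± 0.044 (adjusted p = 0.0172). Tfap2b alone gave 197 to 227 CPM in the labelled controls and 178 to 180 CPM in the labelled cKO libraries. It enters both sums, so these are not independent of each other. By library, the amacrine sum was 781, 794 and 785 CPM in control 1 to 3 and 764, 743 and 745 CPM in cKO 1 to 3. Tfap2b was at 215, 227 and 197 CPM and at 179, 178 and 180 CPM in the same order. Without Tfap2b the amacrine sums of the groups overlapped, and the horizontal sums did not. Ebf1, the factor whose groups did not overlap, lay in the same direction as the horizontal sums. The part of either cell type in the value of Ebf1 was not tested. Both calls were lost without control 2 and cKO 2 (adjusted p = 0.714 each) and in some other settings.

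Markers of other cells and of tissue around the retina were measured in the same way. No gene on any of these lists was at 0 in all 6 libraries. Endothelial markers, with 3 of 6 tested higher and 3 lower, summed to 334 to 359 CPM in the labelled controls and 303 to 311 in the labelled cKO libraries, of which Kdr alone gave 311 to 335 and 283 to 291; pigment epithelium markers, 1 of 9 higher and 8 lower, to 63.7 to 107 and 36.4 to 103. Pericyte and mesenchyme markers, 4 of 10 higher and 6 lower, summed to 66.3 to 121 and 101 to 174, erythroid markers, 6 of 6 higher, to 74.6 to 148 and 111 to 181, and microglia markers, 1 of 9 higher and 8 lower, to 24.9 to 30.1 and 22.9 to 24.1. Photoreceptor precursor markers, 2 of 6 higher and 4 lower, summed to 679 to 704 and 652 to 695, astrocyte markers, 2 of 6 higher and 4 lower, to 68.6 to 78.5 and 60.0 to 76.5, and skeletal muscle markers, 1 of 10 higher and 9 lower, to 8.49 to 43.4 and 8.61 to 16.8. Lens markers had 0 of 11 tested genes higher and 11 lower. No gene of these 9 lists was called in edgeR, and 6 of their 73 tested genes had an unadjusted p under 0.05, against 16.5% of all genes. Without control 3, the library richest in lens RNA, none of the 9 factors was called, and the changes of Pou4f1, Ebf3 and Tbr1 were -0.17, -0.15 and -0.79.

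Some of these values changed with a correction for exon length. When the trend of each library with exon length was removed, Pou4f2 went from 0.06 to 0.03, and the 2 longest factors came closer to no change, Ebf1 from -0.07 to -0.01 and Ebf3 from -0.12 to -0.06 on the log2 scale. The 2 shortest moved the other way, Isl2 from -0.07 to -0.13 and Pou4f3 from -0.13 to -0.19. None was called either way in edgeR, and the lowest adjusted p among these 4 was then 0.333.

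The authors' deposited table of the comparison, named as cKO against control, gave the opposite sign for 8 of the factors. In the authors' deposited table Pou4f1 was at a log2 fold change of 0.16 (adjusted p = 0.108), Pou4f2 at -0.04 (0.760), Isl1 at -0.03 (0.793), Isl2 at 0.08 (0.584), Ebf1 at 0.08 (0.404) and Eomes at 0.02 (0.902). Ebf3 was the 1 factor past 0.05 in the authors' deposited table, at 0.16 ± 0.056 (SE; adjusted p = 0.0444), of 7 factors with an adjusted p there, where 8.97% of the 7593 genes with an adjusted p passed. Pou4f3 at 0.16 and Tbr1 at 0.87 had no adjusted p in the authors' deposited table. Foxp1 was at -0.60 in it (adjusted p = 6.02e-11), against 0.65 from the counts as labelled. The called genes of the lists were reversed too. The authors had Atoh7 at -0.27 (adjusted p = 4.54e-04), Chrnb3 at 0.32 (0.0273), Tfap2b at 0.25 (0.00378) and Prox1 at 0.24 (0.00696). Foxp2 was at 0.52 with no adjusted p.

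The deposited counts gave values close to the authors' in 1 design. DESeq2 with the groups as labelled and the labelled sexes exchanged between groups as a covariate gave log2 fold changes whose Pearson r with the authors' deposited table was -0.9998 across 21080 genes, with opposite signs for 99.9%; genes are not independent replicates. With genotype alone r was -0.920, and with the sexes as labelled -0.791. In the first of these fits Ebf3 fell by 0.16 on the log2 scale in the libraries labelled cKO (DESeq2 adjusted p = 0.0415) and was the 1 factor called of the 7 with an adjusted p. Of the 7320 genes with one in that fit, 9.43% were called. So the direction of every difference given here, Ebf3 included, rests on which group label is right, which was not tested beyond the values above.

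**Figure D4:**
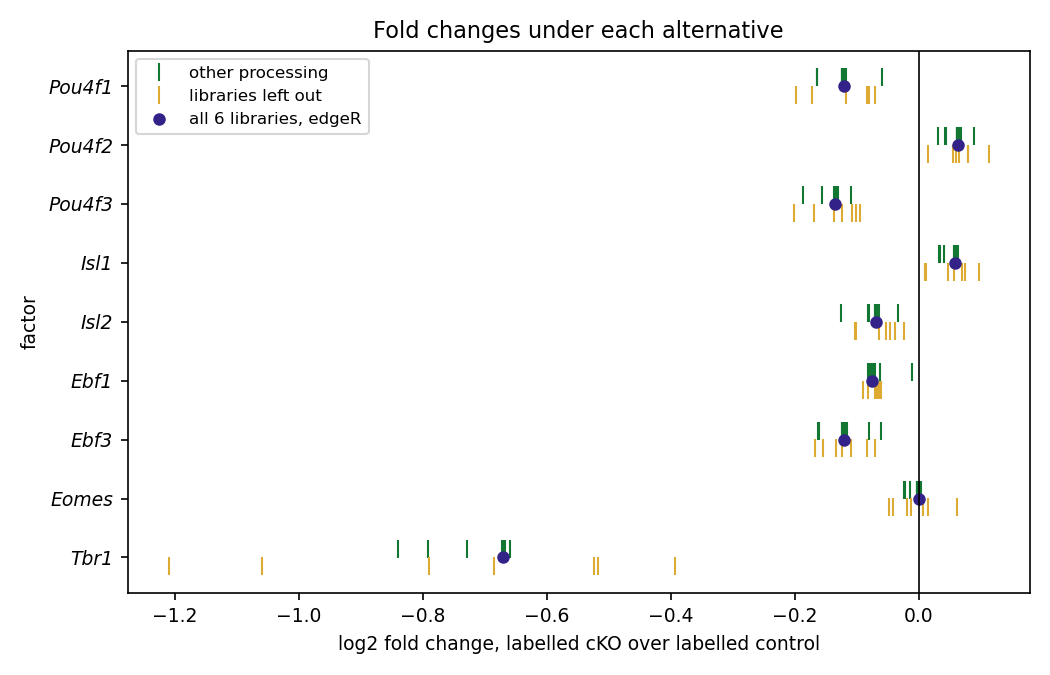
Log2 fold change of each factor, labelled cKO group over labelled control group (x axis), in the edgeR fit of all 6 libraries (point), under other processing (upper ticks) and with libraries left out (lower ticks). The values of 8 factors stay on 1 side of 0, those of Eomes lie on both sides from -0.05 to 0.06, and those of Tbr1 spread from -1.21 to -0.39.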

How the data were processed

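Total RNA was depleted of ribosomal RNA and made into directional libraries read as pairs, per the labels' protocols. The submitters' processing notes name cutadapt 2.8, STAR 2.7.6a, featureCounts 1.5.1, DESeq2 1.32.0 and mm10; settings, strand included, are not given in the sources used. The authors deposited whole-number counts per gene. The authors' deposited table holds, per the file headers, a mean normalized count (a signal), log2 fold changes with errors, a test statistic (a score), p-values and adjusted p-values.

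The 9 genes and the other lists were chosen with earlier results of these data known. Genes were kept by filterByExpr and tested with edgeR 4.0.16 (R 4.3.3), with TMM scaling, genotype alone, robust quasi-likelihood and Benjamini-Hochberg adjustment at 0.05 over 17275 genes. The SE is a Wald error of the quasi-likelihood fit, and 95% intervals use its degrees of freedom. The script was tested on simulated data. CPM uses TMM-scaled library sizes, and exon lengths are those of GENCODE M21. Libraries of a group differed by a chi-square of 7.39 to 12.5 per degree of freedom, so none was a duplicate. Same-numbered libraries had deviations correlated at 0.11, -0.06 and 0.21, and the labels name no pairing. Numbers were therefore not taken as pairs. The rule for named genes took the 9 genes, Foxp1, 5 sex-linked genes, for each list up to 3 called genes per direction (or the 2 most abundant), and for the 3 highest factors their 3 most alike genes; marker lists with no call are given by counts and sums, with only Kdr named, and 1 marker list is not reported here; Ebf2 and Ebf4 were named after their values were seen. Alternatives were RLE and upper quartile scaling, no filter, a filter at 1 CPM in 3 libraries, DESeq2 1.42.0, limma-voom (limma 3.58.1), no robust estimation, sex covariates, a replicate block, removal of the exon length trend (lowess span 0.3), and libraries left out. DESeq2 with exchanged sexes was added after seeing the data. Protein sequences were not used here.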

Additional observations from a re-analysis of the deposited data

How the results depend on the processing

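None of the 9 factors was called by edgeR or limma-voom, or by DESeq2 with genotype alone, in any alternative of these tools; 1 (Ebf3, adjusted p = 0.0415) was called by DESeq2 with the labelled sexes exchanged as a covariate, which was added after seeing the data. In edgeR 2 of 9 had an unadjusted p under 0.05, against 16.5% of all genes. That count was 0 to 4 with single libraries left out and 0 to 3 under other processing. The share of all genes in these settings was not counted, so the counts are not read as a change in the factors. In every alternative that gave a value, 8 factors kept their sign. Eomes turned, to -0.0022 with RLE scaling, -0.0022 with DESeq2, -0.0027 with limma-voom, -4.5e-05 with labelled sex, -0.023 with exchanged sexes, -0.0013 with the replicate block, -0.013 without the length trend, -0.041 without control 2 and cKO 2, and -0.024 with DESeq2 and exchanged sexes; leaving out single libraries gave -0.047 to 0.062. Ldb1 ranged from -0.030 to 0.015, turning without control 1.

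The 4 lists of ganglion cell genes, of 18, 26, 8 and 31 genes, held 3 called genes, where 0.781% of all genes were called. That number was 6 with no filter, 1 without robust estimation, 7 with exchanged sexes and 13 with the replicate block. It was 1 without the length trend, 0 without control 2 and cKO 2 and 8 with DESeq2 and exchanged sexes. Leaving out single libraries gave 1 to 8. The number called over all genes moved in these settings too. Over all genes the 135 called became 742 with no filter, 83 at 1 CPM, 514 with DESeq2, 10 without robust estimation, 746 with exchanged sexes, 1065 with the replicate block, 38 without the length trend, 9 without control 2 and cKO 2 and 690 with DESeq2 and exchanged sexes. Leaving out 1 library gave 19 (without cKO 2) to 778 (without control 3); it was 34 and 21 without control 1 and 2, and 361 and 27 without cKO 1 and 3. In deviations from the group means, control 3 correlated best with cKO 3 (0.21), but control 1 with cKO 2 (0.17) and control 2 with cKO 3 (0.08). With 3 libraries per group, values this small neither show nor exclude a pairing by number. The causes were not tested. Depth limits Tbr1 most, at 19 to 61 counts per library; Pou4f3 and Tbr1 had no adjusted p in DESeq2.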
